A study of Homo sapiens with 8 samples.

Results

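ATF3 and SESN2 are stress-response genes on chromosome 1, and their loci were followed here through cell lysates and shed vesicles of transfected HEK 293T cells. The deposited table gives counts of reads for gene rows drawn on hg19. A row was taken as a member when an exon interval of it overlapped the span that GRCh38 gives ATF3 (212565300 to 212620800) or SESN2 (28259500 to 28282500). This found 4 rows, 2 for each span, of 5363 rows on chromosome 1. They carry other symbols in the table: NENF and PACC1 lie in the ATF3 span, and SMPDL3B and ENSG00000227050 lie in the SESN2 span. The loci were picked with their levels in lysates and in vesicles, with and without the TRACE construct, already known, so those levels are given as a description and none of them was tested.

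The study tagged RNA for export in vesicles. HEK 293T is a human embryonic kidney line. All cultures were transfected with lipofectamine 3000: the TRACE cultures with GFP-C-YTHDF1 and GBP1-CD9, the control cultures with GFP and GBP1-CD9. CD9 fused to GBP1 was thus transfected into both, and the YTHDF1 fusion only into the TRACE cultures. All were kept in medium with exosome-depleted serum and RNase A at 30 µg/mL. RNA was read from the lysate and from the microvesicles of the same cultures, giving 8 libraries in 4 groups of 2: TRACE lysates and vesicles (cultures II and III) and control lysates and vesicles (cultures I and II). The fusion proteins came from transfected constructs, and the sources used here do not state their promoters or whether cultures with different numerals were grown separately, so the spread between libraries may be technical.

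ATF3 is a transcription factor of the bZIP class that binds DNA as a dimer through a leucine zipper. It is scarce in resting cells and is induced by amino acid shortage, endoplasmic reticulum stress, DNA damage and other insults, in good part downstream of ATF4. SESN2 (sestrin 2) is a leucine sensor that binds GATOR2 and thereby restrains the growth kinase mTORC1, and it is induced by p53, ATF4 and NRF2. YTHDF1, which the TRACE construct adds, binds mRNA that carries N6-methyladenosine, and the tetraspanin CD9 sits in the membrane of extracellular vesicles.

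The sequences below are the coding stretches of both genes that lie under the leading member rows by GRCh38 numbering. They show what a read counted there as NENF or SMPDL3B can hold if reads were placed by GRCh38. They were read at the genes' own places on hg19, 5′ to 3′ on the plus strand. Capitals mark bases whose GRCh38 positions fall inside an exon of the row. The ATF3 stretch is the coding part of exon 4 (chr1:212792700-212792894), the last exon of the main transcript, which encodes the C-terminal part of the protein. All 195 of its bases are in capitals. The SESN2 stretch is exon 3 (chr1:28598185-28598382), of which 129 of 198 bases are in capitals.
ATF3 exon 4 coding part: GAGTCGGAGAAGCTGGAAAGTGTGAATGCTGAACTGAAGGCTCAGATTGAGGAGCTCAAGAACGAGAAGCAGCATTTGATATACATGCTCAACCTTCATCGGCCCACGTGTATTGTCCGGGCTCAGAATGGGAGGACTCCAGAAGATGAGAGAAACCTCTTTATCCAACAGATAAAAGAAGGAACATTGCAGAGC
SESN2 exon 3: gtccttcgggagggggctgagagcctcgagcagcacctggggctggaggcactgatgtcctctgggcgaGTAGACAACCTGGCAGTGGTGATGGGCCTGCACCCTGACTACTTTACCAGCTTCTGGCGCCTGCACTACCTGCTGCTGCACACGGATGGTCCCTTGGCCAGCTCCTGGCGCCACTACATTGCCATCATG

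The positions of the member rows are given before their levels. The row labelled NENF (ENSG00000117691.5, chromosome 1, 212606229 to 212619714, hg19, plus strand) has 1290 exonic bases, all within the ATF3 span, and 543 of them (42.1%) fall in exons of ATF3 by GRCh38 numbering. In the main ATF3 transcript these cover 195 coding bases and 162 bases of 3′ UTR of exon 4. The row labelled SMPDL3B (ENSG00000130768.10, 28261504 to 28285668, plus strand) has 515 of 2670 exonic bases (19.3%) in exons of SESN2: 129 coding bases of exon 3 and 386 bases of 3′ UTR of exon 10, the last. The row ENSG00000227050 (28265386 to 28286704, minus strand) has 80 bases in that same 3′ UTR. The row labelled PACC1 (ENSG00000065600.8, 212537273 to 212588243, minus strand) has 499 exonic bases in the ATF3 span and 0 in ATF3 exons. The remaining exonic bases of these rows fall in introns of ATF3 and SESN2 or beyond the spans, and a count does not say which base it came from.

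By GRCh38 numbering, the symbols in the table do not name these loci. The submitters' processing notes name hg19, and no source used here says that reads were placed by GRCh38. Reading the member rows as ATF3 and SESN2 depends on that placement. If reads were placed on hg19, the symbols hold and the rows labelled ATF3 and SESN2 are those genes. Of 994 rows with the symbol of a protein-coding gene that overlap a coding gene's exon by GRCh38 numbering, 30.2% had at least 100 counts over the 4 lysates, against 3.26% of the 950 that overlap none. The former rows were also longer, with a median of 4707 exonic bases against 3192. The row that carries the symbol ATF3 lies at 212738676 to 212794119, where GRCh38 numbering puts exons of NSL1 (525 bases), a kinetochore gene. It had 2121 to 2594 CPM (a row's counts scaled to the library's total) in the 4 lysates, 134 and 355 in control vesicles, and 86.7 and 1499 in TRACE vesicles. The row that carries the symbol SESN2 overlaps no GRCh38 exon and had between 18.4 and 233 CPM in the 8 libraries. The text below therefore speaks of the ATF3-position row (NENF) and the SESN2-position row (SMPDL3B), and says nothing of the genes NENF and SMPDL3B.

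Depth differed between groups. Total counts ran from 34602 in TRACE vesicle library II to 479140 in control vesicle library II, and all 1190053 counts lay on chromosome 1. YTHDF1 and CD9 lie elsewhere, so the transfected genes could not be checked. The 2 most abundant rows of the table held 41.8% to 68.5% of control vesicle counts, 11.7% to 28.2% of TRACE vesicle counts and at most 0.0978% in lysates, which lowers the CPM of every other row in vesicles. Marker genes were read by position too, and not all their rows reach the gene's exons. Rows for 5 of 6 proliferation markers summed to 539 to 1023 CPM in lysates, 434 to 484 in TRACE vesicles and 344 to 1799 in control vesicles. Rows for 6 of 10 leukocyte markers summed to 742 to 852 CPM in lysates, most of it on the PTPRC row, 173 to 1921 in TRACE vesicles and 390 to 705 in control vesicles. The keratinocyte list had 1 of 5 rows, with at most 18.3 CPM in lysates, 78.1 in TRACE vesicles and 29.2 in control vesicles. The part of these differences in the results below was not tested.

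The ATF3-position row was abundant in every lysate and at 0 in 3 of 4 vesicle libraries. TRACE lysates had 5146 CPM (culture II, 221 counts) and 5063 CPM (culture III, 297 counts). Control lysates had 7195 CPM (culture I, 785 counts) and 6448 CPM (culture II, 1052 counts). Control lysates were the higher, at 6822 ± 529 CPM (SD, n = 2) against 5104 ± 58.5 in TRACE lysates. The log2 ratio of these means was -0.42, and the fitted value, whose spread is shared with the vesicle groups, was -0.72 ± 1.46 (SE, edgeR). In bulk RNA, fewer cells or vesicles that carry a transcript and less of it in each cannot be told apart.

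In vesicles the row was found in a single library. Both control vesicle libraries had 0 counts, although their total counts were the highest of all. Their 95% exact intervals reach up to 15.5 CPM in culture I and 7.70 CPM in culture II (counting error only). The 2 most abundant rows held 41.8% to 68.5% of those totals, which leaves less depth for every other row. TRACE vesicle library II also had 0 counts, with an interval that reaches up to 107 CPM. TRACE vesicle library III had 228 counts, or 3561 CPM (95% exact interval 3115 to 4054, counting error only). The presence of the row in TRACE vesicles thus rests on culture III alone, and without that library both vesicle groups stand at 0 and no ratio between them can be given. With it, the mean of TRACE vesicles was 1781 ± 2518 CPM (SD, n = 2), at least 426-fold above control vesicles with these put at a floor of 3 counts over the group. This bound, 8.73 on the log2 scale, was 7.91 without the 2 most abundant rows in the totals, 7.67 with TMM library sizes, and 7.71 and 7.76 with R1 or R2 alone. It was 7.14 without control vesicle library II and 9.73 without TRACE vesicle library II. As control vesicles held no counts, the shifts with R1 or R2 alone, or without a control vesicle library, follow the depth counted.

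**Figure D1:**
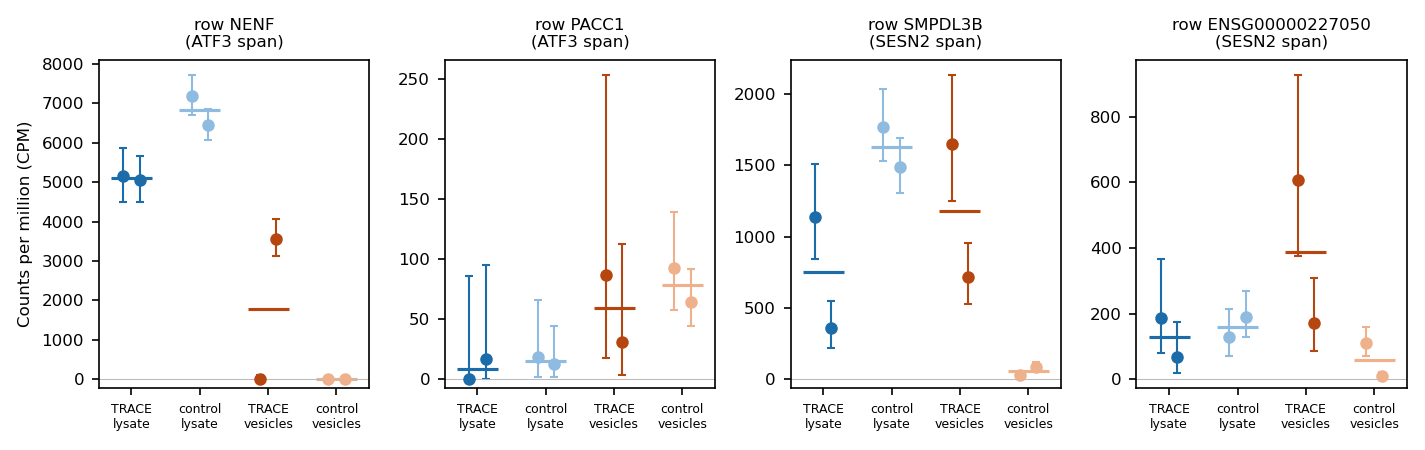
CPM of the 4 member rows in each library (points, with 95% exact binomial intervals for counting error) and group means (bars), n = 2 libraries a group. The NENF row is at 0 in 3 of 4 vesicle libraries, and the SMPDL3B row is at 87.7 CPM or less in control vesicles and at 358 or more elsewhere.

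Set beside its own lysate, the ATF3-position row was lower in vesicles of each of the 4 cultures. In 3 of them the vesicle library had 0 counts, so the folds are bounds that depend on depth and cannot be ranked. In TRACE culture III lysate exceeded vesicles 1.42-fold, a log2 ratio of vesicles over lysate of -0.51. That ratio ran from -0.78 to -0.03 under 4 other ways of scaling or counting. It was near level, at -0.03, without the 2 most abundant rows in the totals. In TRACE culture II lysate was at least 59.3-fold higher. In control cultures I and II it was at least 572-fold and 1030-fold higher. Each of these bounds has the vesicle library put at 3 counts. In the fit over all rows, 36.6% of 1113 rows tested differed between control vesicles and lysates, 20.8% lower and 15.7% higher in vesicles (edgeR quasi-likelihood, Benjamini-Hochberg adjustment at 0.05), and in TRACE cultures 5.21% differed, 4.22% lower and 0.988% higher. Under upper-quartile scaling the split turned: 312 rows were higher and 188 lower in control vesicles, against 175 and 232 with TMM, and 33 were higher and 33 lower in TRACE vesicles, against 11 and 47. The median log2 difference of all rows moved from 0.39 to 1.07 in control and from 0.38 to 0.99 in TRACE cultures with that scaling. Because the members were chosen on these very contrasts, nothing is read from where they stand among those shares.

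The other row in the ATF3 span reaches no ATF3 exon, and 210 of its bases lie in exons of another gene, ENSG00000288007. This row, labelled PACC1, had 0 to 2 counts in each lysate, 3 and 2 in TRACE vesicles and 22 and 31 in control vesicles (92.3 and 64.7 CPM). In control cultures it was thus higher in vesicles than in lysates, the reverse of the NENF row, while in TRACE cultures the counts were too few to rank. It did not pass the filter on low counts that the other 3 members passed. Just outside the span, the nearest row below (PPP2R5A) had at most 51.1 CPM in any lysate but 16.7 to 1445 CPM in vesicles, and the nearest above (LINC02771) had 1 count in all 8 libraries. Of these 4 rows, high lysate counts were seen on the NENF row, which has 42.1% of its exonic bases in ATF3 exons. Which of its bases these counts came from was not tested.

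The SESN2-position row was present in all 8 libraries. TRACE lysates had 1141 CPM (culture II, 49 counts) and 358 CPM (culture III, 21 counts). Control lysates had 1769 CPM (culture I, 193 counts) and 1489 CPM (culture II, 243 counts). Control lysates were the higher and the closer pair, at 1629 ± 198 CPM against 749 ± 554 (SD, n = 2), and the fitted difference was -1.47 ± 1.02 on the log2 scale (SE, edgeR).

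Vesicles of TRACE cultures had more of this row than those of control cultures. TRACE vesicles had 1647 CPM (culture II, 57 counts, 95% exact interval 1248 to 2134) and 718 CPM (culture III, 46 counts, interval 526 to 958). Control vesicles had 29.4 CPM (culture I, 7 counts, interval 11.8 to 60.5) and 87.7 CPM (culture II, 42 counts, interval 63.2 to 118). The mean was 1183 ± 657 CPM in TRACE and 58.5 ± 41.2 in control vesicles, a ratio of 20.2 or 4.34 on the log2 scale. That log2 ratio was 3.13 without the 2 most abundant rows in the totals and 3.22 with TMM library sizes. It was 3.62 without TRACE vesicle library II and 5.33 without control vesicle library II, and the fitted log2 difference was 3.20 ± 1.09 (SE, edgeR). Unlike the ATF3-position row, it was found in both TRACE vesicle libraries. Over all rows, 6.2% differed between TRACE and control vesicles, 4.76% higher and 1.44% lower in TRACE (edgeR), and for the same reason as above these shares are background only.

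Against its own lysate the SESN2-position row was higher in TRACE vesicles and far lower in control vesicles. In TRACE cultures II and III vesicles exceeded lysate 1.44-fold and 2.01-fold, and in each culture the counting intervals of vesicles and lysate overlapped. In control cultures I and II lysate exceeded vesicles 60.3-fold and 16.99-fold, and the intervals did not overlap. The log2 ratio of means was 0.66 in TRACE and -4.80 in control cultures. The fitted log2 differences were 0.73 ± 1.01 and -3.94 ± 1.12 (SE, edgeR). Without the 2 most abundant rows in the totals the control value was -3.31, with TMM library sizes -3.95, and without control vesicle library II -5.79, all in the same direction. The TRACE value was -0.06 without vesicle library II, 0.05 without lysate library III, 1.14 without vesicle library III and 1.72 without lysate library II.

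**Figure D2:**
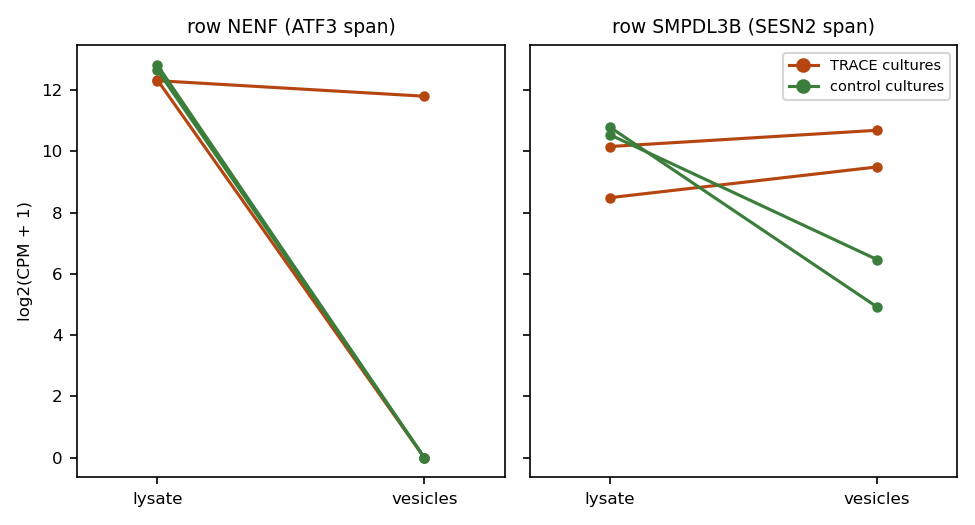
log2(CPM + 1) of the ATF3-position row (NENF) and the SESN2-position row (SMPDL3B) in lysate and vesicles, a line joining the libraries of each culture. Only the line of TRACE culture III stays up for the NENF row, while both TRACE lines stay up for the SMPDL3B row and both control lines fall.

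The minus-strand row in the SESN2 span, ENSG00000227050, was sparser. It had 8 and 4 counts in TRACE lysates, 14 and 31 in control lysates, 21 and 11 in TRACE vesicles, and 26 and 4 in control vesicles. In CPM the TRACE vesicles (607 and 172) lay above the control vesicles (109 and 8.35), with a fitted log2 difference of 2.35 ± 1.06 (SE, edgeR). Its lysate groups overlapped. Part of its exonic bases overlap those of the SMPDL3B row on the other strand, and since the library kit does not mark strand, reads there cannot be assigned to either row. On either side of the span the nearest rows, RPA2 and XKR8, had at most 55.2 and 46.6 CPM in lysates.

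Both leading rows were read alike from the R1 and R2 columns that were added for each library: R1 held 48.6% of the counts of the ATF3-position row and 54.3% of those of the SESN2-position row, against 51.0% over all rows. Across the 8 libraries the log2(CPM + 1) values of both rows had a Pearson correlation of 0.61. This is a description over libraries that share cultures and differ in depth.

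The rows most like each locus were looked for among 662 rows whose lysates averaged 100 CPM or more. For the ATF3-position row these were ENSG00000228037, OR2T29, ENSG00000236108, AL589685.1 and MED8-AS1, with Pearson correlations of 0.996 or more over 8 libraries. All 5 had 0 counts in the same 3 vesicle libraries and 9 to 25 counts in TRACE vesicle library III. For the SESN2-position row they were ATF6 (0.965), PPFIA4 (0.956), SNAPIN (0.939), WASH7P (0.926) and HNRNPA1P59 (0.925). All of these were at 79.5 CPM or less on average in control vesicles and at 609 or more in TRACE vesicles. These symbols again name rows of the table, and 9 of 10 lie over GRCh38 exons of another gene; the row labelled ATF6 has 80 bases in exons of DUSP12.

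The pathway around ATF3 and SESN2 was read at GRCh38 positions in the same way, from 6 lists with 184 genes: the integrated stress response, immediate early and AP-1 genes, p53 targets, the nutrient-sensing arm of mTORC1, antioxidant genes, and the unfolded protein and heat shock responses. Only 43 of them lie on chromosome 1. For 15 of these no row has an exonic base in the span, among them JUN, the AP-1 partner of ATF3, and BTG2, an antiproliferative p53 target, so neither could be read. The other 28 were represented by the row with the most exonic bases in the span, and 23 of these rows passed the filter. In 8 of the 28 the row has no base in an exon of the gene.

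Between TRACE and control vesicles none of the 23 rows passed the test (edgeR 0, with 7 at an unadjusted p under 0.05; DESeq2 0). Over all 1113 rows 6.2% passed with edgeR, and 264 had an unadjusted p under 0.05. Their median log2 difference was -0.04, against -0.24 over all rows tested. Each gene was then represented by the row with the most bases in its GRCh38 exons, a choice made after seeing the data. With it, 1 of 18 rows was higher in TRACE than in control vesicles. This was the row at UBE2J2, an enzyme that ubiquitinates misfolded endoplasmic reticulum proteins, with 6811 against 154 CPM (4.93 ± 0.87 SE, edgeR adjusted p = 0.0134). The same row had 3329 CPM in TRACE and 3807 in control lysates. Against lysates it was not called in TRACE vesicles (1.03 ± 0.75 SE, edgeR adjusted p = 0.370). In control vesicles it was lower (-4.42 ± 0.85 SE, edgeR adjusted p = 0.00692). Its share, 1 of 18, is near the 4.76% found over all rows. Without any 1 of the lysate libraries, or with only the 4 vesicle libraries, edgeR called 0 rows in this contrast, this row included. The MTOR-position row, at the kinase that SESN2 restrains, had 7630 and 2936 CPM in TRACE vesicles and 243 and 718 in control vesicles. It did not pass (2.35 ± 1.00 SE, edgeR adjusted p = 0.193). That row has 472 of its bases in MTOR exons; the row with the most, labelled EXOSC10 (2456 bases), had 70.3 against 38.7 CPM (0.17 ± 1.05 SE, edgeR adjusted p = 0.951).

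Between TRACE and control lysates no row of the lists passed either (edgeR 0, with 0 at an unadjusted p under 0.05; DESeq2 0), as was so for 0% of all rows. The median was -0.29 against -0.16 over all. The row at GADD45A, a growth arrest gene induced by p53 and ATF4, has 157 bases in exons of the gene. It had 129.5 ± 14.4 CPM in TRACE and 50.5 ± 19.4 in control lysates (SD, n = 2, edgeR adjusted p = 1) at 13 counts in each group. The row at PHGDH, the first enzyme of serine synthesis and an ATF4 target, has 183 bases in exons of the gene. It had 245 ± 81.4 and 233 ± 8.16 CPM. The edgeR fit, which scales libraries by TMM, put the log2 difference at -0.25 ± 0.81 (SE), the opposite sign to the CPM means.

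Between vesicles and lysates of TRACE cultures edgeR called 0 of the 23 rows (5 at an unadjusted p under 0.05) and DESeq2 called 3. Over all 1113 rows edgeR called 5.21% (58 rows, with 306 at an unadjusted p under 0.05). DESeq2, run on all 4024 rows with a count, called 106 rows. The replicate block, which compares each vesicle library with the lysate of its own culture, called 2, both lower in vesicles, and 76 over all rows. The row at EDEM3, which helps to remove misfolded glycoproteins, had 2 counts in vesicles and 43 in lysates (edgeR adjusted p = 0.0518). It has 560 bases in exons of the gene.

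In control cultures 5 of the 23 rows fell in vesicles and 0 rose: 2 of 5 in the integrated stress response list, 1 of 7 p53 targets, 1 of 3 mTORC1 genes, 1 of 5 in the unfolded protein and heat shock list, and 0 of 1 and 0 of 2 in the AP-1 and antioxidant lists. The lower calls are 21.7% of the list, near the 20.8% of all rows that were lower, while 15.7% of all rows were higher and 36.6% were called in all. The list's median log2 difference was -0.31 against 0.39 over all rows. SARS1, the seryl-tRNA synthetase of the integrated stress response list, fell by 5.16 ± 1.20 (log2, with SE; edgeR adjusted p = 0.0118). YARS1, the tyrosyl-tRNA synthetase, fell by 3.65 ± 0.92 (edgeR adjusted p = 0.0160). The SARS1-position row had 5582 and 5749 CPM in control lysates and 75.5 and 117 in control vesicles. The row at HSPA6, a stress-inducible HSP70 (462 bases in its exons), fell by 5.90 ± 1.46 (edgeR adjusted p = 0.0151). HSPA6 has a near-identical neighbour, HSPA7, so its row is uncertain. The row at PLK3, a kinase induced by p53 (278 bases in its exons), fell by 3.48 ± 1.04 (edgeR adjusted p = 0.0284). The row at PRKAB2, a regulatory subunit of AMPK, had 33 counts in control lysates and 0 in control vesicles (edgeR adjusted p = 0.0243) but no base in an exon of that gene. ATF6, a sensor of endoplasmic reticulum stress, missed the threshold (-2.42 ± 0.87, edgeR adjusted p = 0.0514), and its row has no base in an exon of the gene. The row that reaches ATF6 exons, labelled OLFML2B (177 bases), lay the other way, at 531 CPM in control vesicles and 21.4 in control lysates (5.74 ± 2.56 SE, edgeR adjusted p = 0.102). Under upper-quartile scaling 5 fell and 2 rose, and with rows taken by exon overlap 5 of 18 fell and 0 rose. All 5 calls of the main fit were lost when any 1 of the 4 lysate libraries was left out.

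**Figure D3:**
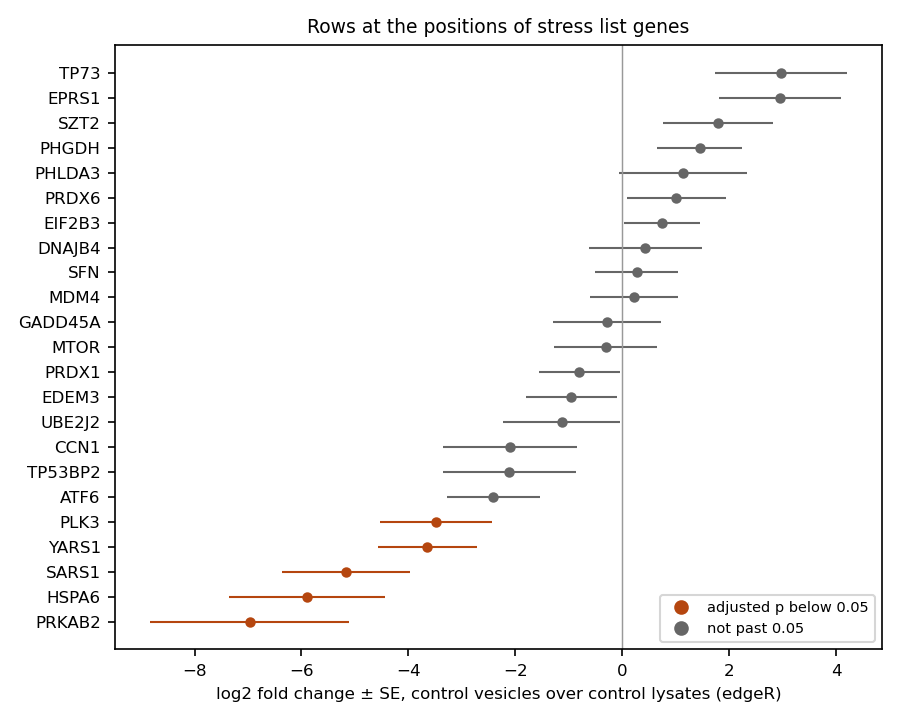
edgeR log2 fold change with its SE for the 23 tested rows at positions of stress list genes, control vesicles over control lysates (n = 2 libraries each). The 5 rows past the threshold, in orange, all lie below 0; the value for PRKAB2 comes from a group at 0 counts and depends on the fit's prior count.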

How the data were processed

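The deposited file holds whole-number counts of reads per gene row. Per the file headers, the authors made these counts with featureCounts 1.6.4 against GENCODE release 19 with strand setting 2, with no option set for read pairs or multi-mapping reads. The submitters' processing notes name STAR, without a version, and hg19. Per the labels' protocols, libraries were made with SMART-Seq2 and Nextera, which do not mark strand. R1 and R2 columns were added; all 16 count columns were used and 0 per-sample columns were left out. Of 63568 rows, 5363 lie on chromosome 1 and the count elsewhere was 0; 5178 of the 5363 had a symbol.

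Member rows and list rows were found by comparing exon intervals with GRCh38 numbers: the spans of the rule, gene spans of RefSeq (GRCh38.p14), and the GRCh38 exon locations kept in GENCODE 44 lifted to hg19. No coordinate was converted. Sequences were read from GRCh37 at the genes' hg19 places. Members and lists were chosen with earlier results of these data known. List genes named in the text are those past the threshold (at most 6 a direction, highest mean CPM first) and JUN, GADD45A, BTG2, ATF6, MTOR and PHGDH; UBE2J2, EDEM3 and the exon-overlap rows EXOSC10 and OLFML2B were named after their values were seen.

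edgeR 4.0.16 (quasi-likelihood, TMM, filterByExpr, Benjamini-Hochberg at 0.05 over 1113 rows) was fitted as 1 model of 4 groups over 8 libraries, with 4 residual degrees of freedom (common BCV 0.665). The SE of a log2 difference was taken as its size over the root of its F statistic. All groups share 1 estimate of the spread. Levels are CPM of all counts; depth ran from 34602 to 479140. Intervals are exact binomial (95%). A group at 0 was put at 3 counts. The series text says that vesicles and lysate come from the same culture, which the replicate numerals pair; deviations of such pairs from their group means correlated at -0.0318 (TRACE) and 0.0215 (control). Alternatives were other scalings, no filter, DESeq2 1.42.0, the replicate block, R1 or R2 alone, totals without the 2 most abundant rows, and each library left out. The fit without the filter and DESeq2 took all 4024 rows with a count. Added after seeing the data were list rows taken by exon overlap and fits of only the 4 libraries compared. A further marker list is not reported here. The steps were tested on simulated data. Software was Python 3.11.15 (numpy 2.4.6, pandas 2.3.3, scipy 1.17.1, matplotlib 3.10.9) and R 4.3.3.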

Additional observations from a re-analysis of the deposited data

Results flagged for a closer look

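The SESN2-position row moved in opposite directions in the 2 kinds of culture: it was higher in vesicles than in lysate in both TRACE cultures (log2 ratios of 0.53 and 1.01) and lower in both control cultures (-5.91 and -4.09), a gap of 5.77 between the means of these log2 ratios. The difference was not tested, because the row was chosen with these levels known. In each TRACE culture the counting intervals of vesicles and lysate overlapped. The fitted log2 difference in TRACE cultures was 0.73 ± 1.01 (SE, edgeR). The median of all rows tested in that contrast was 0.38 with TMM and 0.99 with upper-quartile scaling. Without TRACE vesicle library II the log2 ratio of means in TRACE cultures was -0.06. Each of the 4 signs held under all 4 other ways of scaling or counting, where the ratios ran from 0.43 to 1.48 in TRACE and from -6.87 to -2.42 in control cultures.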

How the results depend on the processing

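For the ATF3-position row, the log2 ratio of control vesicles over lysates, a bound throughout with the vesicles at 3 counts over the group, was -10.67. It became -9.37 without the 2 most abundant rows, -10.08 with TMM library sizes, -9.59 with R1 alone and -9.75 with R2 alone. With each library left out it ran from -10.75 to -9.08. As these vesicles held no counts, the shifts with R1 or R2 alone, or without a control vesicle library, follow the depth counted. TMM library sizes moved its TRACE over control lysate value from -0.42 to -0.72. Its TRACE vesicle over lysate value, -1.52, ran from -5.88 to -0.52 with each library left out, the lower end without TRACE vesicle library III. For the SESN2-position row, control vesicles over lysates went from -4.80 to -3.31 without the 2 most abundant rows, and TRACE vesicles over lysates, 0.66, ran from -0.06 to 1.72 with each library left out, its sign turning without TRACE vesicle library II (-0.0608). The cause of the other shifts was not tested.

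The calls over all rows depended on the libraries. Between TRACE and control vesicles edgeR called 69 rows, 225 without the filter, and 0 with only the 4 vesicle libraries, while DESeq2 called 141; with each library left out the count ran from 0 to 115, the 0 without any 1 lysate library. For vesicles over lysates in TRACE cultures, 58 rows became 93 without the filter, 106 with DESeq2 and 0 with only the 4 libraries compared, and ran from 0 to 123 with each library left out. In control cultures 407 rows ran from 32 to 410. The stress list counts went from 0 to 1 between vesicles when rows were taken by exon overlap (0 to 3 with each library left out). In TRACE cultures they went from 0 to 2 without the filter, 3 with DESeq2 and 2 with the replicate block (0 to 3 with each library left out), and in control cultures from 5 to between 0 and 8. The block changed no other list count; over all rows it called 76 and 374 in TRACE and control cultures. Between TRACE and control lysates 0 rows were called under each alternative run. TRACE was not compared with control in pairs, because these cultures share only numeral II, so the block was fitted for vesicles over lysates alone.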
